A study of Mus musculus with 6 samples.

Results

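The genes for 8 proteins named for, or built into, the myelin of peripheral nerve were followed through embryonic diaphragm muscle with and without Schwann cells. They were Mal, Mag, Mbp, Cnp, Pmp22, Pmp2, Prx and Mpzl1, taken by name out of the 23073 genes with a value. The question was which of them were held by the Schwann lineage and which were also made by muscle or its connective tissue. Mal alone was nearly absent from muscle without Schwann cells, while Mbp, Cnp, Pmp22, Prx and Mpzl1 stayed within 2-fold of the wild-type level, as did 71.7% of all genes above the floor value that the files hold for no reads and 93.4% of genes averaging at least 0.5 RPKM (reads scaled by gene length and library depth).

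RNA of diaphragm at embryonic day E14.75 was sequenced in 6 libraries. A pair came from erbB3 wild-type (WT) muscle, numbered 5 and 6, and a pair from muscle labelled erbB3 KO, the erbB3 mutant, numbered 1 and 2, which the labels describe as free of Schwann cells. The remaining pair, Wnt1-Ribotag 1 and 2, came from embryos with Wnt1-Cre, the Ribotag allele and wild-type erbB3, in which ribosomes carrying a hemagglutinin tag were precipitated. Wnt1-Cre marks the whole neural crest lineage, sensory and autonomic neurons included, and not Schwann cells alone. Each Wnt1-Ribotag library pooled diaphragms of a litter that also held embryos without Cre. Against mutant muscle the Wnt1-Ribotag libraries differed in erbB3 genotype, in alleles and in RNA preparation, which cannot be told apart.

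Schwann cells wrap axons of peripheral nerve in myelin, a stack of lipid-rich membrane held together by a small set of abundant proteins. In the mouse these cells arise from neural crest, depend on neuregulin signalling through ErbB2 and ErbB3 receptors to survive along axons, and begin to myelinate only around birth, so E14.75 lies in the precursor and immature stages. The transcription factor Sox10 is needed at every stage of the lineage, and Pou3f1 and Egr2 act later in the passage to myelination. Several so-called myelin genes are also active outside glia, among them Pmp22 in fibroblasts and Cnp in many dividing cells.

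Values were RPKM, which scale reads by the length of the gene and the depth of the library, so that levels can be compared between genes. Where no read was counted, the files hold a small floor value and never 0. Depth, read from these floors, ran from 100178863 to 230216660 reads per library, with 19492 to 20349 genes above the floor in whole muscle and 17205 to 17945 in Wnt1-Ribotag. Differences were tested with limma on log2(RPKM + 0.5) over all genes averaging 0.5 RPKM or more, adjusted by Benjamini-Hochberg, and called at 0.05. Fold changes on this scale are smaller than the ratios of RPKM for genes near or under 0.5. For low genes the ratio was therefore also read in each of the 4 pairs of single libraries, without a pseudocount and without a test. An exact permutation test of 2 libraries against 2 cannot go below 0.33 and was not used. The labels call the libraries of a group by number only, so p-values measure the spread between these libraries. In whole muscle, fewer cells of a type and less RNA per cell cannot be told apart.

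The promoters of the members that behaved differently are shown first, as RefSeq windows on GRCm38.p6 from 250 bases before a start to 50 after it, read along the gene's strand. Capitals mark a core of the SOX family (ACAAAG or ACAATG) or of the EGR family (GCGTGGG) on either strand, the families of Sox10 and Egr2. The windows are those of Mal (chr2:127656646-127656945, minus strand), which was nearly absent without Schwann cells, of Mag (chr7:30914814-30915113, minus strand, 1 of 3 starts), which was in part kept, of Cnp (chr11:100574689-100574988, plus strand) and Prx (chr7:27499074-27499373, plus strand), which were kept, and of the outermost of 4 starts of Pmp22 (upstream chr11:63128732-63129031 and downstream chr11:63132553-63132852, plus strand). Pmp22 is known to use alternative promoters, the upstream one in myelinating Schwann cells, and a value per gene does not separate them.
Mal: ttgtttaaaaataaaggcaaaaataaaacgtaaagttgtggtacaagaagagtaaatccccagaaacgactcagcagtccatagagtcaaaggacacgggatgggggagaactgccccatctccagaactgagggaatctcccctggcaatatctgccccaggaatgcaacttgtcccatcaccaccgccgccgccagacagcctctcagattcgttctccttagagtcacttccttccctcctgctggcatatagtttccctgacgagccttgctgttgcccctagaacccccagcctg
Mag: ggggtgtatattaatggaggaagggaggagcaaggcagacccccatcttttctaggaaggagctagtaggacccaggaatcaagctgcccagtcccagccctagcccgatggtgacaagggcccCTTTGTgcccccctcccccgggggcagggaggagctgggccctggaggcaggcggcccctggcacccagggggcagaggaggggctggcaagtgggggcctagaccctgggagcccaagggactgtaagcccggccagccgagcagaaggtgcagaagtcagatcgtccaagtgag
Cnp: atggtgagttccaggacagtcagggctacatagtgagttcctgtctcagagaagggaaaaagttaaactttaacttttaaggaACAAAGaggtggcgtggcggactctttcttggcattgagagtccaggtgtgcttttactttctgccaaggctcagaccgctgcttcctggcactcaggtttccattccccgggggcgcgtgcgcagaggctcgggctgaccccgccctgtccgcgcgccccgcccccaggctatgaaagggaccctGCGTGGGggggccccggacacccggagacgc
Prx: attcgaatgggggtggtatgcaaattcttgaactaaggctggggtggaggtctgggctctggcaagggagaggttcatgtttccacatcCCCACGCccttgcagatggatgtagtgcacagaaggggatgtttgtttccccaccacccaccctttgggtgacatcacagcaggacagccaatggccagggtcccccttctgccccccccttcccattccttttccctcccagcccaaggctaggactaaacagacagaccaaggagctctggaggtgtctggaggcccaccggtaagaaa
Pmp22 upstream start: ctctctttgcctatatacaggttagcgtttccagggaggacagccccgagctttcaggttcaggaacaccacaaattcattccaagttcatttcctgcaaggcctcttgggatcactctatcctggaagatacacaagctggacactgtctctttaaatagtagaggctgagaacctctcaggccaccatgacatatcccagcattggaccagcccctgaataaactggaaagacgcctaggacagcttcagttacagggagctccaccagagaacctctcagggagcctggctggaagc
Pmp22 downstream start: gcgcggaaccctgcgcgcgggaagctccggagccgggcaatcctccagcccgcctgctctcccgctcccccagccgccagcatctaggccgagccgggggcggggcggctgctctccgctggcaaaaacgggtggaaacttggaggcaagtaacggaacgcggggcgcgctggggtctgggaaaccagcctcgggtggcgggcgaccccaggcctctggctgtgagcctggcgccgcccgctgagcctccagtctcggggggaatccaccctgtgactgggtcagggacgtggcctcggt

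The Mag window held ACAAAG on the opposite strand, at position -126 from the start. The Cnp window held ACAAAG at -167 and GCGTGGG at 20. Prx held GCGTGGG on the opposite strand, at -161. Positions give the first letter as printed, counted from the start as 1. These letters are common: ACAAAG stood in 18.7%, ACAATG in 12.6% and GCGTGGG in 5.04% of 32851 promoter windows of the same length, with both strands read. The Mal window held neither core, nor TATAAA (13.6% of all windows), CCAAT (37.4%) or GGGCGG (35.7%). The Pmp22 starts differed in base composition, with 50.7% G and C at the upstream window and 72.3% at the downstream one, which held GGGCGG at 3 places against 0 upstream. The window of Mpzl1, with 70.0% G and C, likewise held GGGCGG at 3 places and CCAAT at 2. A match describes letters in a window and is not a binding site, and these windows hold no distal element.

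Sox10 served as the measure of the Schwann lineage. Its level was 2.89 RPKM in WT 5 and 2.16 in WT 6, 0.00854 and 0.0178 in mutants 1 and 2, and 15.5 and 32.2 in Wnt1-Ribotag 1 and 2. The mutant thus kept 0.521% of it, and no group overlapped another. Sox10 fell further than most of its list. Of the 18 listed Schwann lineage markers 15 were tested between mutant and WT, with a median log2 fold change of -0.877 beside -2.55 for Sox10. Cdh19 and Gfra3 kept 1.4% and 4.57%, but S100b, Ngfr and Ednrb kept 52.5%, 61.8% and 50.6%. The 56.8% kept by Mag lay within this spread. Whether these markers were also made outside the lineage was not tested. The targeted gene Erbb3 did not separate the genotypes, with 16.5 and 15.8 RPKM in WT 5 and 6 and 21.5 and 11.9 in mutants 1 and 2. The altered part of the allele is not given in the sources used here, so a level over the whole gene does not check these labels.

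Mal, a small tetraspan membrane proteolipid that travels with glycolipids into myelin and into the apical membrane of epithelia, lies at chr2:127633226-127656695 on the minus strand of GRCm38. It was measured at 0.274 RPKM in WT 5 and 0.140 in WT 6, at 0.00592 in mutant 1 and 0.0151 in mutant 2, and at 4.60 in Wnt1-Ribotag 1 and 7.19 in Wnt1-Ribotag 2. The 3 groups did not overlap, and the order was the same as for Sox10. Mutant muscle kept 5.07% of the wild-type mean, with a range of 2.16% to 10.8% over the 4 pairs of libraries. From the annotated length and the depth, the mutant values stand for about 2.2 and 9.6 reads, against about 76.3 and 89.5 in WT, so the share left is loosely set by counting alone. Tagged ribosomes carried 28.5 times the mean of WT muscle, and between 16.8 and 51.3 times over the pairs. Mal entered the tests of tagged RNA only through the tagged libraries, where it was high. Its means in mutant and WT muscle, 0.0105 and 0.207 RPKM, lay under the filter of 0.5. The rise against mutant muscle passed the test (log2 fold change 3.62, SE 0.35, limma adjusted p = 0.0136), and was not called when genes of every level were tested (limma adjusted p = 0.0668). Against WT muscle it was of like size but did not pass (log2 fold change 3.15, SE 0.32, limma adjusted p = 0.130). Between mutant and WT muscle Mal was under the filter on low values. Without that filter its log2 fold change was -0.46 with a limma adjusted p of 0.462.

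**Figure D1:**
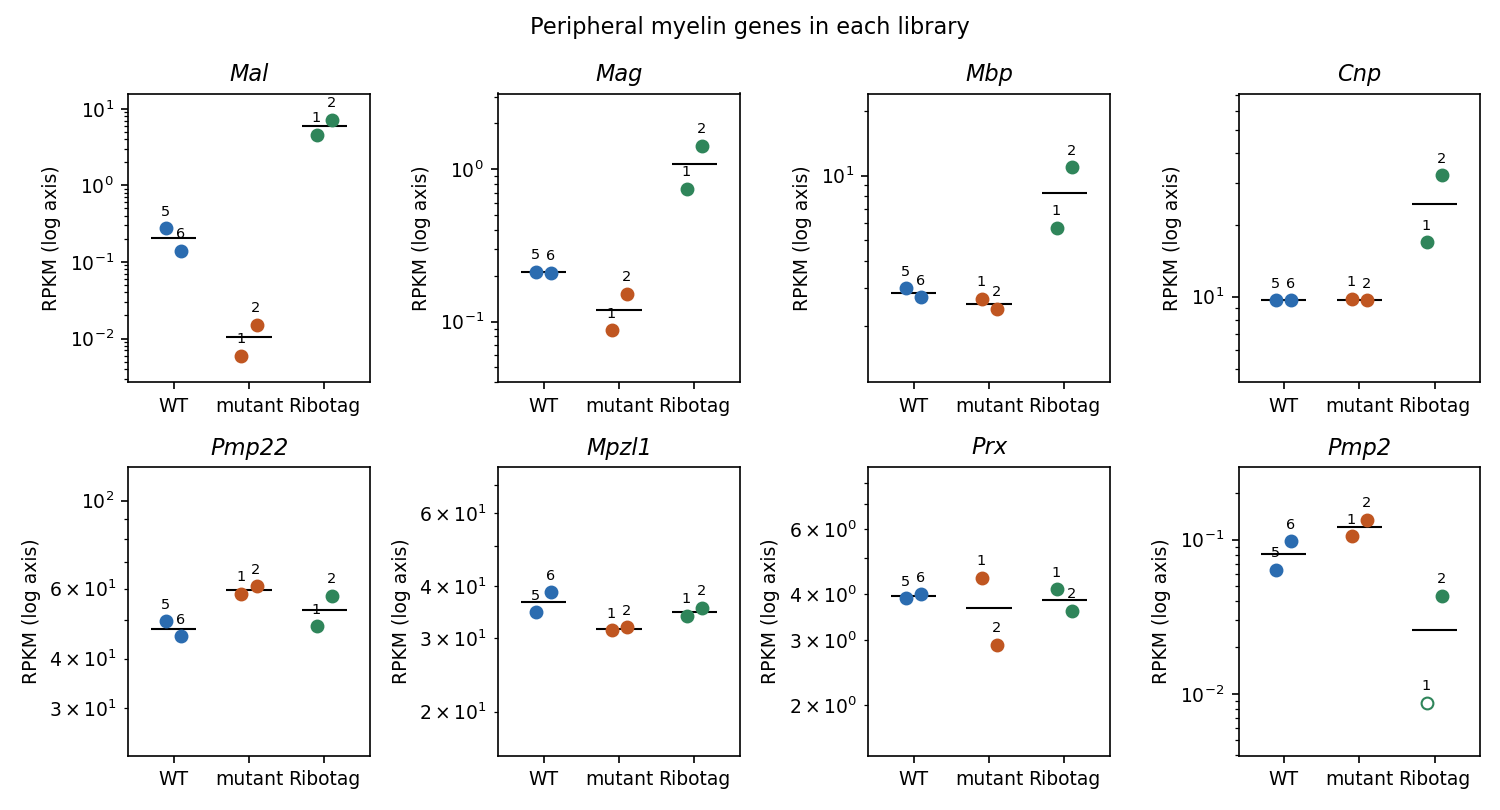
RPKM of the 8 genes (log axis, ranges differing between panels) in each library of erbB3 WT (blue), erbB3 mutant (orange) and Wnt1-Ribotag (green) diaphragm; points are single libraries with their numbers, bars the mean of 2, and the open point lies at the floor. Mal spans 0.00592 to 7.19 RPKM with the groups apart, Mag, Mbp and Cnp are highest in Wnt1-Ribotag, and Pmp22, Mpzl1 and Prx stay within a narrow range.

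Mag, the myelin-associated glycoprotein, is a sialic acid-binding adhesion protein of the glial membrane that faces the axon, encoded at chr7:30899176-30914873 on the minus strand. Its level was 0.212 RPKM in WT 5 and 0.210 in WT 6, 0.0879 in mutant 1 and 0.152 in mutant 2, and 0.744 and 1.43 in Wnt1-Ribotag 1 and 2. Both mutant values lay under both WT values, but only mutant 1 was more than 2-fold under them. The mutant mean was 56.8% of WT, from 41.4% to 72.5% over the pairs. Wnt1-Ribotag stood 5.15 times above WT, from 3.50 to 6.82 times over the pairs. On the log2 scale the differences were 1.12 (SE 0.39, limma adjusted p = 0.231) against WT and 1.32 (SE 0.43, limma adjusted p = 0.184) against the mutant, and neither passed. Mag too entered these tests only through the tagged libraries. Mag differed from Mal in that 0.120 ± 0.0453 RPKM (SD, n = 2) was left in muscle without Schwann cells, while in WT muscle Mag and Mal had about the same level, 0.211 and 0.207 RPKM.

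Mbp, the myelin basic protein that draws the cytoplasmic faces of the membrane together, lies on chromosome 18. Its level was 3.0 and 2.72 RPKM in WT 5 and 6, 2.67 and 2.40 in mutants 1 and 2, and 5.72 and 11 in Wnt1-Ribotag 1 and 2. The mutant values lay just under those of WT and amounted to 88.9% of them (80.3% to 98.5% over the pairs), with a log2 fold change of -0.14 (SE 0.15, limma adjusted p = 0.672). This is about the shift of all genes tested, whose median was -0.10 in the same comparison and 0.00 after scaling by the median of gene ratios. In Wnt1-Ribotag the mean was 2.92 times that of WT, with both libraries above both WT libraries. The log2 fold change of 1.33 (SE 0.33, limma adjusted p = 0.181) did not pass, and against mutant muscle it was 1.48 (SE 0.34, limma adjusted p = 0.109). The gene for Mbp also holds the upstream Golli exons, which are active in other tissues, and a value per gene does not separate these transcripts.

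Cnp, a cyclic nucleotide phosphodiesterase of the cytoplasm-filled channels of myelin, lies at chr11:100574904-100591729 on the plus strand. It stood at 9.66 RPKM in WT 5 and 9.67 in WT 6, and at 9.79 and 9.66 in mutants 1 and 2. Mutant muscle held 101% of the level, from 100% to 101% over the pairs, and the groups overlapped (log2 fold change 0.01, SE 0.13, limma adjusted p = 0.982). On tagged ribosomes it was 16.9 and 32.2 RPKM, or 2.54 times the WT mean (log2 fold change 1.23, SE 0.33, limma adjusted p = 0.185). Scaling by the median of gene ratios put the Cnp share at 109%. Both Wnt1-Ribotag libraries exceeded every whole-muscle library. Of its exons, 154 bases overlap Dnajc7 on the opposite strand, 4.2% of their length.

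Pmp22, a tetraspan protein of compact myelin whose dosage matters for peripheral nerve, lies at chr11:63128982-63159547 on the plus strand. It was the most abundant of the 8, with 49.7 and 45.5 RPKM in WT 5 and 6, 58.2 and 60.8 in mutants 1 and 2, and 48.3 and 57.6 in Wnt1-Ribotag 1 and 2. Mutant muscle held more than WT in all 4 pairs, at 125% of the WT mean (117% to 134% over the pairs). This difference had a log2 size of 0.32 (SE 0.13) and a limma adjusted p of 0.403, so it did not pass. Wnt1-Ribotag overlapped WT, with a ratio of 1.11 and a log2 fold change of 0.15 (SE 0.18, limma adjusted p = 0.668). The skeletal muscle markers summed to 4900 to 7110 RPKM in the mutant against 3490 to 4270 in WT, but the single genes were divided. By log2 fold change 13 of the 20 rose, 7 fell and limma called 0. Mylpf was 2320 and 2070 RPKM in mutants 1 and 2 against 1290 and 995 in WT 5 and 6. Acta1, at 1310 and 507 in mutants 1 and 2, lay on either side of its WT values of 796 and 671. The part of muscle RNA in the Pmp22 level was not tested.

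Mpzl1, a surface receptor of the immunoglobulin type that binds the phosphatase SHP-2, is widely expressed and named only for its likeness to a myelin adhesion protein (chr1:165592240-165634538, minus strand). It measured 34.6 and 38.7 RPKM in WT 5 and 6, 31.4 and 31.9 in mutants 1 and 2, and 34.0 and 35.6 in Wnt1-Ribotag 1 and 2. The mutant lay under WT by a small step, at 86.3% (log2 fold change -0.21, SE 0.13, limma adjusted p = 0.496), and Wnt1-Ribotag overlapped WT at a ratio of 0.949. With 1.04 between the Wnt1-Ribotag libraries, it was the steadiest member in tagged RNA.

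Prx encodes periaxin, a PDZ-domain protein that links the outer Schwann cell membrane to the dystroglycan complex (chr7:27499324-27520214, plus strand). Its values were 3.90 and 3.99 RPKM in WT 5 and 6, 4.42 and 2.91 in mutants 1 and 2, and 4.11 and 3.60 in Wnt1-Ribotag 1 and 2. All 3 groups overlapped, and the mutant libraries spread around the WT pair. The mutant kept 93.0% (73.0% to 114% over the pairs; log2 fold change -0.12, SE 0.20, limma adjusted p = 0.794) and the ratio of Wnt1-Ribotag to WT was 0.978. Exons of Prx share 300 bases, 5.4% of their length, with an antisense gene, Gm15541.

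Pmp2, the fatty acid-binding protein P2 of peripheral myelin, was barely detected. It was 0.0638 and 0.0978 RPKM in WT 5 and 6, 0.106 and 0.134 in mutants 1 and 2, at the floor in Wnt1-Ribotag 1 and 0.0432 in Wnt1-Ribotag 2, for about 9.0 to 43.6 reads in whole muscle. Its mutant level of 149% ranged from 108% to 211% over the pairs. No level above whole muscle was detectable in tagged RNA at this depth. Its exons overlap those of Gm37389 on the same strand over 86.9% of their length (chr3:10179851-10183929, minus strand), so reads of the 2 cannot be told apart. Pmp2 passed the filter in 0 of the 3 comparisons.

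In muscle without Schwann cells 1 of the 8 genes, Mal, was at least 2-fold lower in all 4 pairs, against 1.97% of 21426 genes above the floor. Within 2-fold in all pairs were 5 of 8, Mbp, Cnp, Pmp22, Prx and Mpzl1, against 71.7% of those genes, a share near the background. Mag and Pmp2 fell in neither class. Without mutant 2 the first count was 2, with Mag as the second gene. In limma 0 of the 5 members tested were called between mutant and WT, against 0.171% of 14052 genes tested, and 1, Pmp22, had an unadjusted p under 0.05, against 1691 of all genes.

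On tagged ribosomes 2 of the 8 genes, Mal and Mag, were at least 2-fold above WT muscle in all 4 pairs, against 2.51% of 21045 genes, and 0 were at least 2-fold lower, against 8.55%. Among the 14418 genes with a mean of at least 0.5 RPKM, which 7 of the 8 passed, these shares were 2.73% higher and 1.62% lower. Mbp and Cnp were above WT in every pair, but by less than 2-fold between Wnt1-Ribotag 1 and WT 5 for Mbp and between Wnt1-Ribotag 1 and both WT libraries for Cnp. The count of higher genes was 4 without Wnt1-Ribotag 1, with Mbp and Cnp added, and 3 without WT 5, with Mbp added. Without WT 5 and also without Wnt1-Ribotag 2, Pmp2 was at least 2-fold lower, where its floor value in Wnt1-Ribotag 1 enters. Limma called 0 of the 7 members tested against WT, where 0.00694% of 14418 genes, 1 gene, were called, although Mal, Mag, Mbp and Cnp had an unadjusted p under 0.05, as did 2813 genes. Without Wnt1-Ribotag 1 the log2 fold changes of Mal, Mag, Mbp and Cnp against WT were 3.45, 1.44, 1.77 and 1.69. Without Wnt1-Ribotag 2 they were 2.86, 0.807, 0.891 and 0.774. Against mutant muscle 1 of 7 was called, Mal, where 1.02% of 14325 genes were called higher. When genes of every level were tested, 0 members were called there. Mal and Mag reached the filter of 0.5 RPKM only through the tagged libraries, where they were high.

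**Figure D2:**
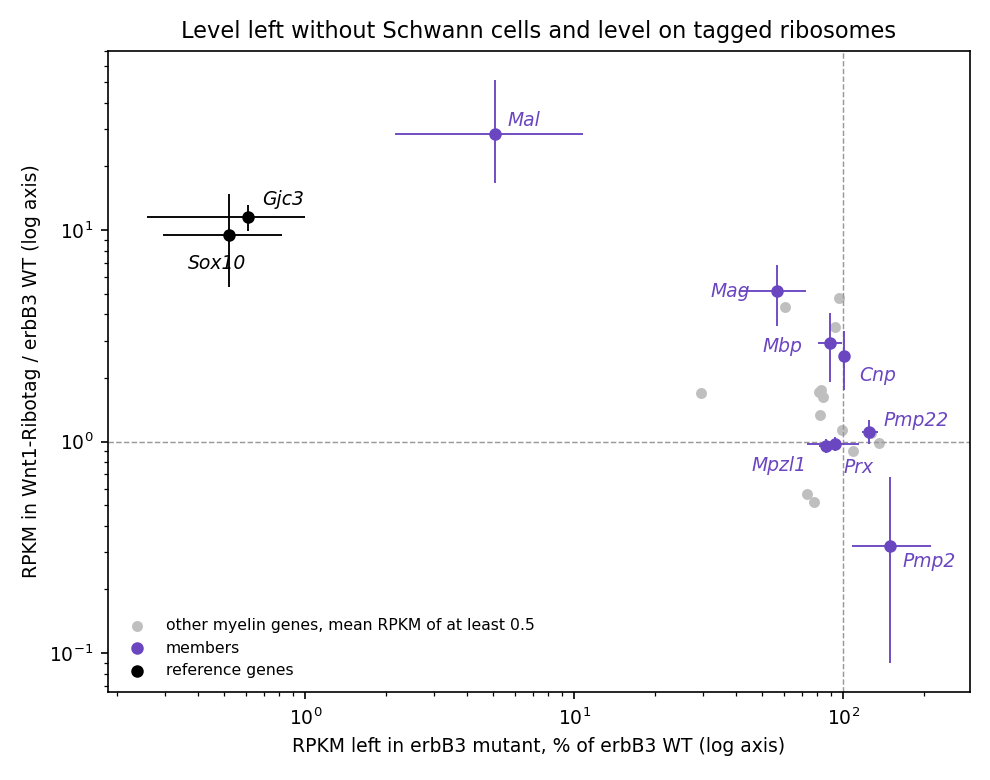
Share of the WT RPKM left in erbB3 mutant muscle (horizontal, %, log axis) against the ratio of Wnt1-Ribotag to WT RPKM (vertical, log axis) for the 8 genes (purple), Sox10 and Gjc3 (black) and other myelin genes averaging 0.5 RPKM or more (grey); points are ratios of group means, bars the range over the 4 pairs of libraries, and the vertical value of Pmp2 uses a floor value. Mal lies on the side of Sox10 with 5.07% left, Mag, Mbp and Cnp are higher on tagged ribosomes with 56.8% to 101% left, and Pmp22, Prx and Mpzl1 lie near 100% and a ratio of 1.

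A gene made by the Schwann lineage alone would keep a fixed ratio to Sox10 in whole WT muscle and in tagged RNA, if tagging and stage were even across that lineage. Relative to Sox10, Mal was 0.0949 and 0.0648 in WT 5 and 6 and 0.296 and 0.224 in Wnt1-Ribotag 1 and 2. It was the only member whose ratio went up in tagged RNA, by 3.25 times. Mag went from 0.0736 and 0.0969 to 0.0479 and 0.0445, or 0.541 times its WT ratio. Mbp went to 0.309 and Cnp to 0.267 of the WT ratio, and in both the tagged libraries had nearly the same ratio, 0.368 and 0.341 for Mbp and 1.09 and 1.0 for Cnp. Pmp22, Prx and Mpzl1 went to 0.128, 0.118 and 0.110 of the WT ratio, close to the reciprocal of 9.45, the ratio of Sox10 itself between tagged and WT RNA. With Gjc3, a connexin of glial gap junctions of which the mutant kept 0.612%, as the reference in place of Sox10, Mal was at 2.41 and Mpzl1 at 0.0832. Pmp2, at its floor in Wnt1-Ribotag 1, was at 0.0283 relative to Sox10 and 0.0267 relative to Gjc3. Gjc3 was chosen for this after its values were seen. These ratios are a description without a test.

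**Figure D3:**
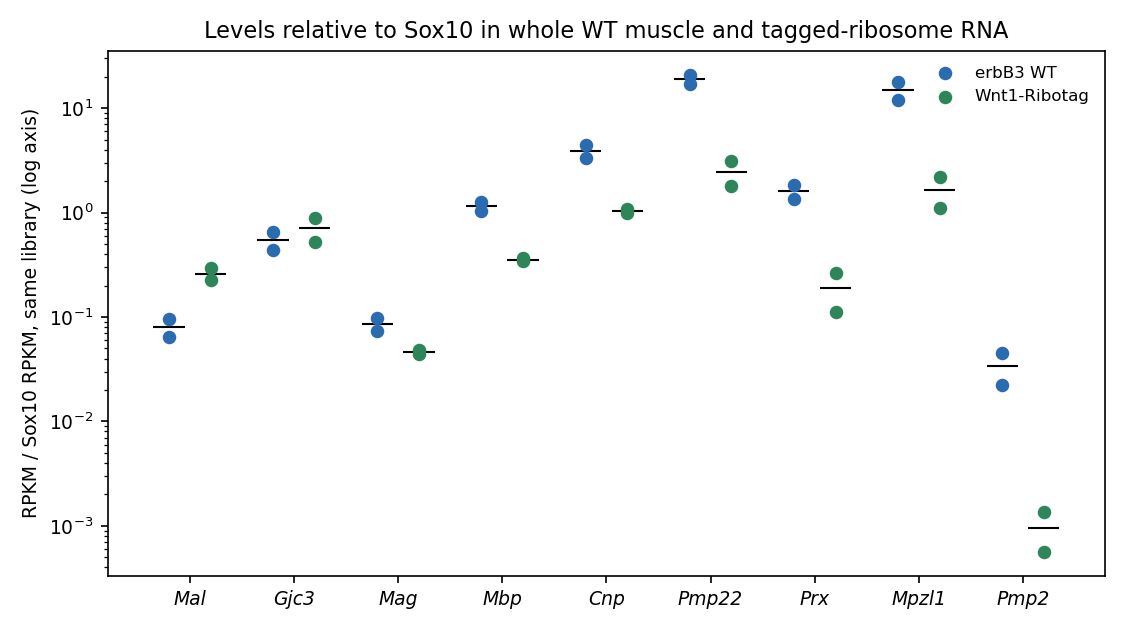
RPKM of each gene divided by Sox10 RPKM of the same library (log axis) in erbB3 WT (blue) and Wnt1-Ribotag (green) libraries; points are single libraries and bars the mean of 2. Of the 8 genes only Mal has a higher ratio in Wnt1-Ribotag, the ratios of Gjc3, shown for comparison, overlap between the groups, Mag is the least lowered, and Pmp22, Prx and Mpzl1 are lowered about as much as Sox10 is higher there.

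Between the tagged libraries, Wnt1-Ribotag 2 held 1.92 times the Mbp, 1.92 times the Mag, 1.91 times the Cnp and 1.56 times the Mal of Wnt1-Ribotag 1, beside 2.07 times the Sox10. Pmp22, Mpzl1 and Prx were at 1.19, 1.04 and 0.874, and Pmp2, from its floor value, at 4.94. Gjc3 was at 1.21, level with Pmp22 and not with Sox10. Over the 6 libraries Pearson's r of log2(RPKM + 0.5) was 0.99 for Mbp and Cnp, 0.96 for Mbp and Mal and 0.94 for Cnp and Mal, with both tagged libraries at the high end, and -0.74 for Pmp22 and Mpzl1. These are descriptions of 6 points that share groups and depth.

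Markers of other cells were read in the same libraries. The muscle label held, with Mylpf, the fast myosin light chain, at 795 to 2320 RPKM, Acta1, skeletal actin, at 507 to 1310 and Myog at 160 to 313. Tagged RNA held the markers of other cells as well. The 20 skeletal muscle markers summed to 3590 to 3930 RPKM in Wnt1-Ribotag, 0.970 of WT, the 16 stroma markers, led by Col3a1, Col1a1 and Col1a2, to 2430 to 2600, 0.760 of WT, and the 10 endothelium markers to 64.7 to 72.6, 0.965 of WT. The ratios of Pmp22, Prx and Mpzl1 to WT were 1.11, 0.978 and 0.949. Lying near these sums does not show a source. Single muscle markers ran from 0.645 (Myod1) to 2.58 (Myh8). The erythroid, macrophage and mesothelium sums were lower, at 0.535, 0.515 and 0.547 of WT. Of all genes averaging at least 0.5 RPKM, 70.2% lay within 2-fold of WT in all pairs. Which cells gave these members in tagged RNA was not tested. The 18 Schwann lineage markers summed to 277 and 726 RPKM in Wnt1-Ribotag 1 and 2, against 85.9 to 104 in WT and 45.6 to 67.4 in the mutant.

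Neuron markers were likewise highest in tagged RNA. The 12 neuron markers measured, among them Stmn2, Tubb3 and Nefl, summed to 16.4 and 76.6 RPKM in WT 5 and 6, 9.78 and 14.1 in mutants 1 and 2, and 125 and 550 in Wnt1-Ribotag 1 and 2, and their part in the levels of Mal, Mag, Mbp and Cnp was not tested. Mal was higher in WT 5, the WT library with the lower neuron sum. The 10 oligodendrocyte markers summed to 44.4 to 73.6 RPKM, mostly Pdgfra and Myrf, which other cells also express. Olig2 was at most at 0.00652 and Olig1 at most at 0.105 RPKM in any library, but Nkx2-2 was 0.145 and 0.065 in WT 5 and 6, 0.00478 and 0.00272 in mutants 1 and 2, and 1.19 and 2.07 in Wnt1-Ribotag 1 and 2, with the groups in the same order as for Mal. Mog and Ermn were highest in Wnt1-Ribotag 1, at 1.29 and 0.590. The part of such cells in the members' levels was not tested. The liver markers Afp and Alb, with 8 others, summed to 520 and 158 RPKM in WT 5 and 6, 18.5 and 10.6 in the mutants, and 286 and 205 in Wnt1-Ribotag, and 3 of the 10 were called lower in the mutant. Mal shared that direction between mutant and WT. On tagged ribosomes Mal was 16.8 to 51.3 times WT, and the liver sum was 0.725 of WT. WT 5, with the higher Mal level of the WT pair, also had the higher liver sum. The part of liver RNA in the Mal level of WT muscle was not tested. Sums of the 8 erythroid, 7 macrophage and 7 mesothelium markers were 0.933, 0.936 and 1.02 of WT in the mutant and 0.535, 0.515 and 0.547 of WT in Wnt1-Ribotag, and the 7 melanocyte markers summed to 1.92 to 4.71 RPKM in all libraries.

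**Figure D4:**
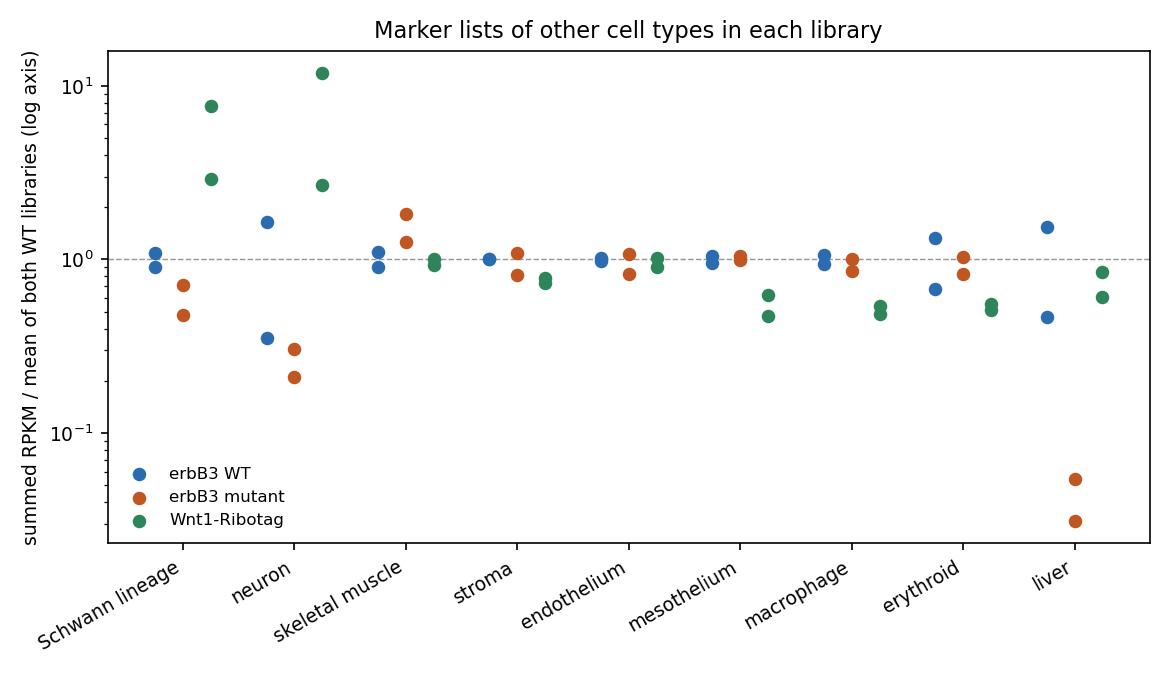
Summed RPKM of each marker list divided by the mean of both WT libraries (log axis) for every library of erbB3 WT (blue), erbB3 mutant (orange) and Wnt1-Ribotag (green). Muscle, stroma and endothelium sums stay near 1 in Wnt1-Ribotag, Schwann and neuron sums are higher there, and the liver sum is lowest in the mutant.

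Of 29 other listed genes for myelin proteins and myelin lipids, 16 could be tested between mutant and WT, and 1 was called, lower, where 0.171% of all 14052 genes tested were called. It was Gjc3, at 1.27 and 1.40 RPKM in WT 5 and 6, 0.0127 and 0.00361 in mutants 1 and 2, and 13.9 and 16.8 in Wnt1-Ribotag 1 and 2. Its fall had a log2 size of -1.85 (SE 0.17, limma adjusted p = 0.00821), so Gjc3, with 0.612% left, and not a member of the 8, came nearest to Sox10. It was not called without mutant 2, without the filter on low values or with all 6 libraries in a fit. The median log2 fold change of the 16 was -0.22, beside -0.10 over all genes. Against WT muscle 0 of 18 tested were called on tagged ribosomes, with a median of 0.25 beside -0.05 over all genes. Against mutant muscle, where 1.02% of all genes tested were called higher, 2 of 17 were called, both higher, Gjc3 (4.96, limma adjusted p = 0.0046) and Cadm4 (2.68, limma adjusted p = 0.0246), an adhesion protein of the Schwann cell face towards the axon. Without the filter only Gjc3 was called there, and with all 6 libraries in a fit 4 were.

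Cadm4 resembled Mag rather than Mal. It had 11.1 and 11.5 RPKM in WT 5 and 6, 7.23 and 6.44 in mutants 1 and 2, and 33.2 and 64.7 in Wnt1-Ribotag 1 and 2, with no overlap, and so kept 60.6%. The most abundant of the list, Cryab, a small heat shock protein of muscle, Gamt, of creatine synthesis, and Tmem98 kept 127%, 109% and 73.4% in the mutant, with ratios of Wnt1-Ribotag to WT of 1.10, 0.900 and 0.565. Tmem98 was thus lower in both, with limma adjusted p of 0.329 in the mutant and 0.172 in Wnt1-Ribotag.

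Of 25 listed regulators of myelin genes 23 were in the files and 20 were tested between mutant and WT. Called lower were Sox10 (-2.55, SE 0.18, limma adjusted p = 0.0064) and Pou3f1, the POU factor of promyelinating Schwann cells (-1.82, SE 0.17, limma adjusted p = 0.00821). The median of the 20 was -0.23 beside -0.10 over all genes. Pou3f1 was 1.97 and 1.56 RPKM in WT 5 and 6, 0.147 and 0.135 in mutants 1 and 2, and 21.5 and 36.4 in Wnt1-Ribotag 1 and 2, so that 7.97% was left. Without mutant 2 the count of regulators called was 1, and without the filter or with all 6 libraries in a fit it was 0. Both were also called higher on tagged ribosomes than in mutant muscle, each by 5.48 on the log2 scale, and neither was called there without the filter. Egr2, the factor of the myelinating stage, stayed low everywhere and did not order the groups, at 0.254 and 0.199 RPKM in WT 5 and 6, 0.209 and 0.142 in mutants 1 and 2, and 0.723 and 0.213 in Wnt1-Ribotag 1 and 2. Yap1, Yy1 and Tead1, the most abundant of the list, kept 81.4% to 93.8% in the mutant.

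Relatives of the members by sequence were read as well. Of 23 in the files, 19 were tested between mutant and WT and 1 was called, Fabp7, the fatty acid-binding protein of immature glia and a relative of Pmp2. It was 3.0 and 3.93 RPKM in WT 5 and 6, 0.393 and 0.372 in mutants 1 and 2 (-2.16, SE 0.18, limma adjusted p = 0.0064), and 35.2 and 134 in Wnt1-Ribotag 1 and 2. This call too was lost in those 3 settings. At this stage the tagged lineage thus carried Fabp7 while Pmp2 lay at or near the floor. Mal2, the relative of Mal, was 0.123 and 0.0554 RPKM in WT 5 and 6, 0.0763 and 0.0451 in mutants 1 and 2, and 1.24 and 1.11 in Wnt1-Ribotag 1 and 2. It was higher on tagged ribosomes, as Mal was, but its WT and mutant values overlapped. The most abundant relatives were Fabp5, Emp1 and Plp2, with mutant shares of 123%, 118% and 93.0%.

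Mag and Pmp2, under a mean RPKM of 0.5, were left out of a search for genes of like pattern. The genes most like each other member over the 6 libraries were taken from 14320 genes by Pearson's r of log2(RPKM + 0.5). For Mal they were Tgfa (r = 0.999), Rasgef1c (0.999) and Cadm1 (0.997), and Rasgef1c alone was as low in the mutant, at 0.0114 and 0.0155 RPKM. For Mbp they were Nkx6-2, Ing1 and Slc25a33 (0.996 to 0.999), for Cnp Scg2, 1810024B03Rik and Hmx1 (0.995 to 0.998), for Pmp22 Gmfg, Cmc2 and Gm12408 (0.968 to 0.976), for Prx Lrrc38, Hgsnat and Pbxip1 (0.992 to 0.994), and for Mpzl1 Plpbp, Adamts18 and Meis2 (about 0.990 each). The partners of Cnp, of which Scg2 marks neurons and neuroendocrine cells, were at most at 0.242 RPKM in whole muscle and higher in tagged RNA, where Scg2 reached 2.92 and 36.6 RPKM. With so many genes and 6 points, high values of r arise readily, and they carry no p here.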

How the data were processed

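RNA-Seq of E14.75 mouse diaphragm was analysed in 6 libraries, 2 each of erbB3 WT, erbB3 mutant and Wnt1-Ribotag, grouped by their labels. The authors deposited RPKM, normalized to gene length and depth, with a mark for genes at the floor. The submitters' processing notes name STAR and mm9, and the program behind the RPKM and its strand setting are not given in the sources used here. Read counts were not used here. Whole-muscle RNA and precipitated polysome RNA were prepared differently, the latter from far less RNA. Depth was read from the floors of 223 microRNA genes (the same value in 81.2%) and limits genes near the floor. Each file has 23076 entries, 3 without a value. Symbols, lengths and positions came from GENCODE M21 on GRCm38 by Ensembl identifier (21583 matched, 1490 not), and no position came from the files. Promoters came from RefSeq (GRCm38.p6), and windows of 6 of the 8 genes were used.

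Tests used limma 3.58.1 (lmFit, eBayes with trend) in R 4.3.3 on the 4 libraries of each comparison, with no block and Benjamini-Hochberg adjustment over all genes tested. The procedure was tested on data with known changes. Tables used pandas 2.3.3 and numpy 2.4.6 in Python 3.11.15, and plots matplotlib 3.10.9. Named are all 8 genes, of other lists the 3 most abundant and, for the myelin, regulator and relative lists, those called in any comparison, and the 3 genes most like each member, with Sox10 and Erbb3 as references. Rasgef1c, Nkx2-2, Mog, Ermn, Olig1, Olig2, Mal2, Egr2, Aspa, Sox2 and Myog beyond that rule were singled out after their values were seen. The members, lists and tests were chosen with earlier results of these data known. Tried as alternatives were median-ratio scaling and quantile normalization, other filters (none, or an average RPKM of 1 or more), a pseudocount of 0.1 or 1, eBayes without trend, a fit to all 6 libraries, a replicate block, 1.5-fold and 3-fold thresholds, a pseudocount of 0.5 on pair ratios, and each library left out. An adjusted p of 0.1 and Gjc3 as the reference were added after seeing the data. Results for 1 gene are not reported here, and it was taken out of the lists.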

Additional observations from a re-analysis of the deposited data

How the results depend on the processing

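Between mutant and WT muscle 0 members were called under all alternatives run. Mal was the gene at least 2-fold lower in all pairs under 1.5-fold and 3-fold thresholds and median-ratio scaling. With a pseudocount of 0.5 in the pair ratios the count was 0, as Mal lies under that value, and leaving out single libraries gave 1 to 2. On tagged ribosomes against WT, the pair count of 2, here in either direction, became 4 at 1.5-fold, 3 with median-ratio scaling, 1 with the pseudocount, and 2 to 4 without single libraries. Members called by limma there were 1 with all 6 libraries in a fit. Against the mutant they were 0 without the filter and 2 with all 6 libraries. The shares of all genes called in these fits are not given here. Without single libraries the log2 fold change of Mal ran from 2.86 to 3.45 against WT and from 3.32 to 3.91 against the mutant. The adjusted p of Mal ran from 0.0176 to 0.139 against WT and from 0.00121 to 0.0668 against the mutant, tagged libraries left out not counted.

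Small differences changed sign. Between mutant and WT, quantile normalization gave 0.0287 for Mbp and 0.0349 for Prx, and Prx ran from -0.382 to 0.149 without single libraries (0.149 without mutant 2). Between Wnt1-Ribotag and WT, Prx was 0.0356 and Mpzl1 0.000218 with median-ratio scaling, and without single libraries Prx ran from -0.117 to 0.0546 (highest without Wnt1-Ribotag 2) and Mpzl1 from -0.153 to 0.0064 (highest without WT 6). Between Wnt1-Ribotag and mutant, Prx was -0.0884 with quantile normalization and -0.18 to 0.351 without single libraries, with -0.000191 without Wnt1-Ribotag 1. With median-ratio scaling the share left in the mutant was 96.5% for Mbp, 136% for Pmp22, 109% for Cnp and 94.0% for Mpzl1. With Gjc3 as the reference, an alternative added after seeing the data, the relative level in tagged RNA was 0.248 for Mbp, 0.438 for Mag and 0.216 for Cnp. The other reference planned was not used here. The cause of these changes was not tested.

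The numbers 1 and 2, shared by Wnt1-Ribotag and mutant labels, come from different litters, and the deviations of same-numbered libraries correlated at 0.17 across genes over 2 pairs. The libraries thus share a number only, and a fit with this replicate block called 3 members, Mal, Mbp and Cnp, in place of 1. The share of all genes called in that fit is not given here. No paired analysis was possible because WT numbers recur in no other group for the other comparisons. Depth limits Mal in the mutant and Pmp2 in all libraries to few reads.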

Other observations

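Several low myelin genes differed between the tagged libraries by far more than the members did. Mog was at 1.29 RPKM in Wnt1-Ribotag 1 and 0.108 in Wnt1-Ribotag 2, Gldn, the gliomedin of nodes of Ranvier, at 0.533 and 0.00238, Ermn at 0.590 and 0.00168, and Pllp, plasmolipin, at 0.604 and 0.00627. In the other direction Cldn11 was at 0.192 and 7.67 RPKM, Omg at 0.219 and 2.27, and Cldn19 at 0.0175 and 0.649. The lowest of these values stand for few reads. Of the list of other myelin genes, 2 lay at the floor in Wnt1-Ribotag 1 and 3 in Wnt1-Ribotag 2. These genes were chosen after their values were seen, and their ratios of group means rest on 1 library each.

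Aspa, the aspartoacylase that feeds myelin lipid synthesis, kept 96.1% in mutant muscle and stood 4.79 times above WT on tagged ribosomes, with 0.780 and 1.04 RPKM in WT 5 and 6, 0.734 and 1.02 in mutants 1 and 2, and 2.78 and 5.95 in Wnt1-Ribotag 1 and 2. As for Cnp, the whole-muscle groups overlapped and both tagged libraries lay above them. Sox2, a factor of immature glia, was lower in both mutant libraries than in either WT library, at 0.152 and 0.209 RPKM in WT 5 and 6, 0.00325 and 0.00918 in mutants 1 and 2, and 0.703 and 4.65 in Wnt1-Ribotag 1 and 2.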
